A study of Mus musculus with 9 samples.

Results

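The cell cycle genes described here are 40 genes of cyclins, cyclin-dependent kinases, DNA replication, nucleotide supply and mitosis, taken by symbol from a table of 23951 gene rows. All 40 were in the table. RNA was sequenced from sorted mouse mammary epithelial cells that expressed a yellow fluorescent protein (YFP) reporter, with 3 libraries for each of 3 genotypes. Every mouse carried the Rosa26-Stop-YFP (R26Y) reporter on a mixed genetic background and received Ad-K8-Cre, an adenovirus with Cre recombinase under the keratin 8 promoter, by injection into the ducts. Cells were sorted from females 1 month later. The first genotype had the reporter alone (WT), the next also carried Trp53L/L (labelled Trp53-null, here p53-null), and the last carried Trp53L/L and Brca1L/L (labelled Trp53-null/Brca1-null, here p53/Brca1-null). The comparisons ask what differed with loss of p53, with loss of p53 and Brca1, and with Brca1 loss on the p53-null background. No label ties the replicates to different mice. A p-value here therefore reflects scatter among libraries, part of which may be technical.

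A cell enters the division cycle when D-type cyclins with Cdk4 or Cdk6, then E-type cyclins with Cdk2, inactivate the RB proteins and free E2F factors to switch on replication genes. The MCM helicase is loaded on origins, DNA is copied, and cyclin B with Cdk1 drives mitosis until the anaphase-promoting complex ends it. p53 restrains this cycle, in part through the CDK inhibitor p21, and most cells of the resting adult mammary gland are not dividing.

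Genes of the later cycle are known to be repressed through the cell cycle genes homology region (CHR) beside CCAAT boxes, and replication genes through E2F sites. Promoters are shown for Cks1b, the 1 member that passed the test, and for Ube2c, Mcm5 and Mcm6, whose levels in some p53/Brca1-null libraries were far above WT. Each is the 250 bases before the RefSeq start on build GRCm38.p6, printed 5′ to 3′ along the gene. Capitals mark the CHR (TTTGAA), the CCAAT box (CCAAT) and E2F sites (TTTCCCGC, TTTCGCGC, TTTGCCGC or TTTGGCGC) on either strand. Cks1b lies at chr3:89418292-89418541, minus strand. Ube2c lies at chr2:164769679-164769928, plus strand. Mcm5 lies at chr8:75109259-75109508, plus strand. Mcm6 lies at chr1:128359706-128359955, minus strand.
Cks1b: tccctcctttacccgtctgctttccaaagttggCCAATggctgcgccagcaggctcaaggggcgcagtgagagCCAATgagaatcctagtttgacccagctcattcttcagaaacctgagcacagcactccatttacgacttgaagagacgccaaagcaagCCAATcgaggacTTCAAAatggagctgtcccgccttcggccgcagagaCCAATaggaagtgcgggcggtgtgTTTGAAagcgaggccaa
Ube2c: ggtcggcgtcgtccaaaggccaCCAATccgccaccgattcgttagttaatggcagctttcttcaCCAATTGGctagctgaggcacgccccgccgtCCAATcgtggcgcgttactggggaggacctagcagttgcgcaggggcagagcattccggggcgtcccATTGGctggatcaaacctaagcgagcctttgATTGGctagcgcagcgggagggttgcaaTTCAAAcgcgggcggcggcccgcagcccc
Mcm5: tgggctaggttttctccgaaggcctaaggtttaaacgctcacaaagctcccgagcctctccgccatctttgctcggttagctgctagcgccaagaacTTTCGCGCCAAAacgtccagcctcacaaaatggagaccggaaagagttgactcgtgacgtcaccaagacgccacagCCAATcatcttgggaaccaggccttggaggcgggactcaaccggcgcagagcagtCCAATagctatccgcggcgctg
Mcm6: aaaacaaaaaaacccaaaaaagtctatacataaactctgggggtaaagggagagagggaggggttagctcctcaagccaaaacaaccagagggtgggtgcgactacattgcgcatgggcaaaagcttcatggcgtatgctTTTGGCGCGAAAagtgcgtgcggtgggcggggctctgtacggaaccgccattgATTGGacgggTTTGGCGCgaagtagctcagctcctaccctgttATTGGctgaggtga
The Cks1b window held 2 CHR matches and 4 CCAAT boxes, and the Ube2c window held 1 CHR match and 6 CCAAT boxes, 2 of which overlapped on opposite strands. The Mcm5 window held 2 overlapping E2F matches and 2 CCAAT boxes. Mcm6 had 3 E2F matches, of which 2 overlapped, and 2 CCAAT boxes. Of the 40 members, 33 had a promoter in the RefSeq table. Ccna2, Ccnd1, Ccnd2, Ccne2, Mcm4, Aurkb and Stmn1 had no entry. Searched over the full window of 300 bases, from 250 before the start to 50 after it, the CHR letters were present for 13 of the 33 (39.4%) against 20.2% of all genes in that table. The CCAAT box was present for 25 (75.8%) against 41.1%, and an E2F match for 6 (18.2%) against 2.60%. All 13 members with a CHR match also had a CCAAT box (39.4%, against 7.97% of all genes with both). The 6 with an E2F match were Cdk1, Cdk2, Mcm3, Mcm5, Mcm6 and Mcm7. Over single promoters the shares were 17.9% for the CHR, 37.4% for the CCAAT box, 6.95% for both and 2.26% for E2F. A match is a description of the letters and not evidence of binding.

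Levels are in FPKM, which scales fragments by transcript length and by library size. The sums lay between 359976 and 433880 FPKM per library. The read depth is unknown. Genes at 1 FPKM or more numbered 4839, 7320 and 6105 in the WT libraries, 6286, 9146 and 9767 in p53-null, and 7332, 8213 and 7473 for p53/Brca1-null. Keratin 8 (Krt8) lay between 1136 and 4385 FPKM and Epcam between 121.0 and 577 across the libraries, so luminal markers were high in all 9. The targeted genes did not check the labels: Trp53 stood at 2.77, 25.5 and 1.35 FPKM in WT, against 55.7, 0.858 and 20.3 in p53-null and 23.7, 26.5 and 1.88 for p53/Brca1-null. Brca1 was listed at 0 in every library but p53-null replicate 1, at 0.00559. Genotypes below are those of the labels.

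Some libraries stood apart. WT replicate 1 held values close to a fixed share of WT replicate 2: of 1922 genes at 10 FPKM or more in replicate 2, above 0 in replicate 1 and there less than 20% of the replicate 2 value, 75.3% lay at 6 to 10% of it, with a median of 8.14%. Of all 72 ordered pairs of libraries the next highest share was 24.8%. Among the members, 15 were at 1 FPKM or more in WT replicate 2, and for 8 of them (Ccnb2, Ccnd1, Ccnd3, Cdk4, Mcm7, Cks2, Ube2c and Aurkb) WT replicate 1 lay in that window. Cdk4, for example, stood at 50.9 FPKM in WT replicate 2 and 4.45 in WT replicate 1, which is 8.73%. What the 2 libraries share was not tested further, and the Cks1b test, the counts of called genes and the medians against WT are also given without WT replicate 1. The levels of single members, the detection shares and the counts at an unadjusted p or without overlap include it. A value of exactly 0 can also be a failed estimate. Ftl1, the ferritin light chain, was listed at 0 in p53/Brca1-null replicate 3 and stood between 6389 and 22017 FPKM elsewhere.

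**Figure D1:**
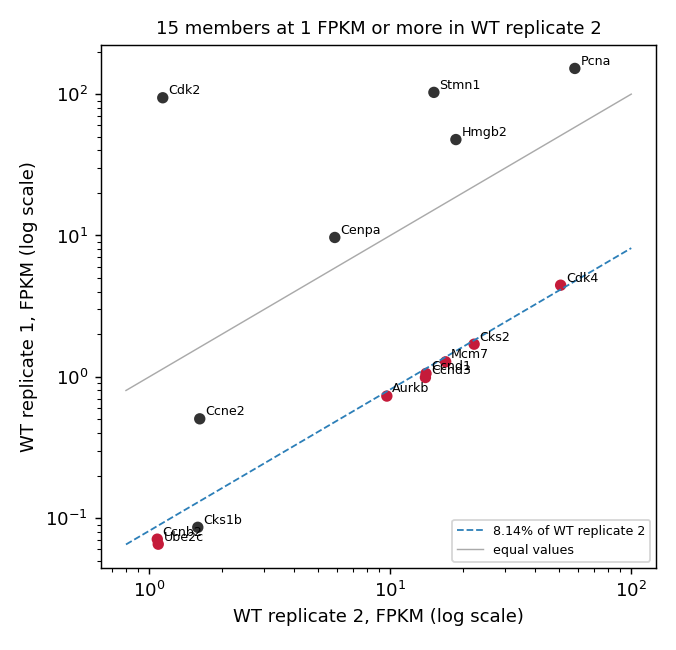
FPKM of the 15 members at 1 FPKM or more in WT replicate 2 (x axis, log scale) against WT replicate 1 (y axis, log scale). Red points lie at 6 to 10% of the replicate 2 value, near the dashed line at 8.14%, and Cdk2, Pcna, Stmn1, Hmgb2 and Cenpa lie above the grey line of equal values.

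Most members were low. The rule of at least 1 FPKM in at least 3 libraries kept 26 of the 40: Top2a, Ccna2, Ccnb2, Ccnd1, Ccnd2, Ccnd3, Ccne2, Cdk2, Cdk4, Mcm3, Mcm4, Mcm5, Mcm6, Mcm7, Pcna, Rrm1, Tyms, Tk1, Birc5, Cks1b, Cks2, Ube2c, Cdc20, Cenpa, Hmgb2 and Stmn1. The 14 that fell short were Mki67, Ccnb1, Ccne1, Cdk1, Cdk6, Mcm2, Rrm2, Plk1, Aurka, Aurkb, Bub1, Bub1b, Mad2l1 and E2f1. Mki67, the gene of the division marker Ki-67, was therefore not testable. Plk1 was listed at 0 in all 9 libraries, and Ccnb1, Bub1 and Bub1b stayed under 0.15 FPKM in each.

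Over all 40 members, detection was lowest in WT. At 1 FPKM or more there were 11, 15 and 10 members in the WT libraries, 18, 19 and 29 in p53-null and 24, 24 and 15 for p53/Brca1-null. The WT and p53-null counts did not overlap, whereas p53/Brca1-null replicate 3 equalled WT replicate 2. In WT 22 of the 40 (55.0%) reached 1 FPKM in no library, against 8 (20.0%) in p53-null and 9 (22.5%) for p53/Brca1-null. Over all gene rows these shares were 62.5%, 52.7% and 56.2%. The libraries with fewest detected members were also among those with fewest detected genes of any kind. The part of gene detection in the members' counts was not tested.

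**Figure D2:**
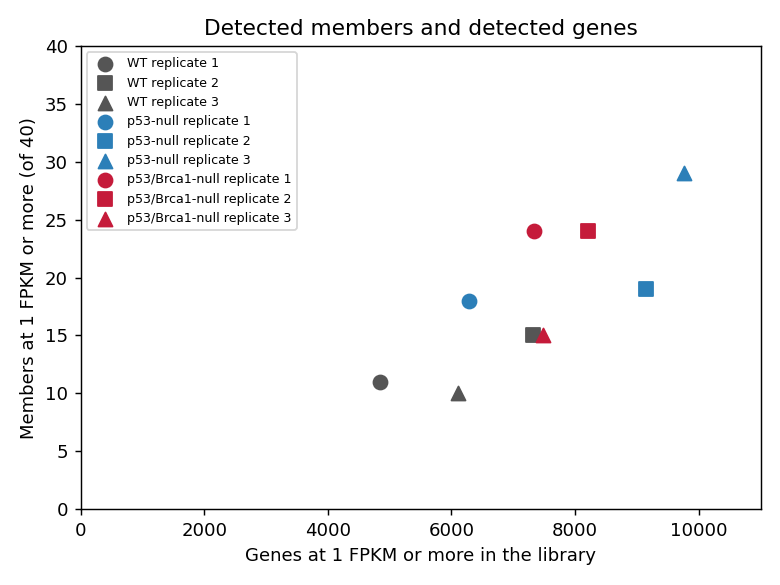
Number of the 40 members at 1 FPKM or more (y axis) against the number of all genes at 1 FPKM or more (x axis) in each of the 9 libraries, coloured by labelled genotype and shaped by replicate. WT replicates 1 and 3 are lowest in both counts, at 11 and 10 members, and p53-null replicate 3 is highest in both, at 29 members.

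**Figure D3:**
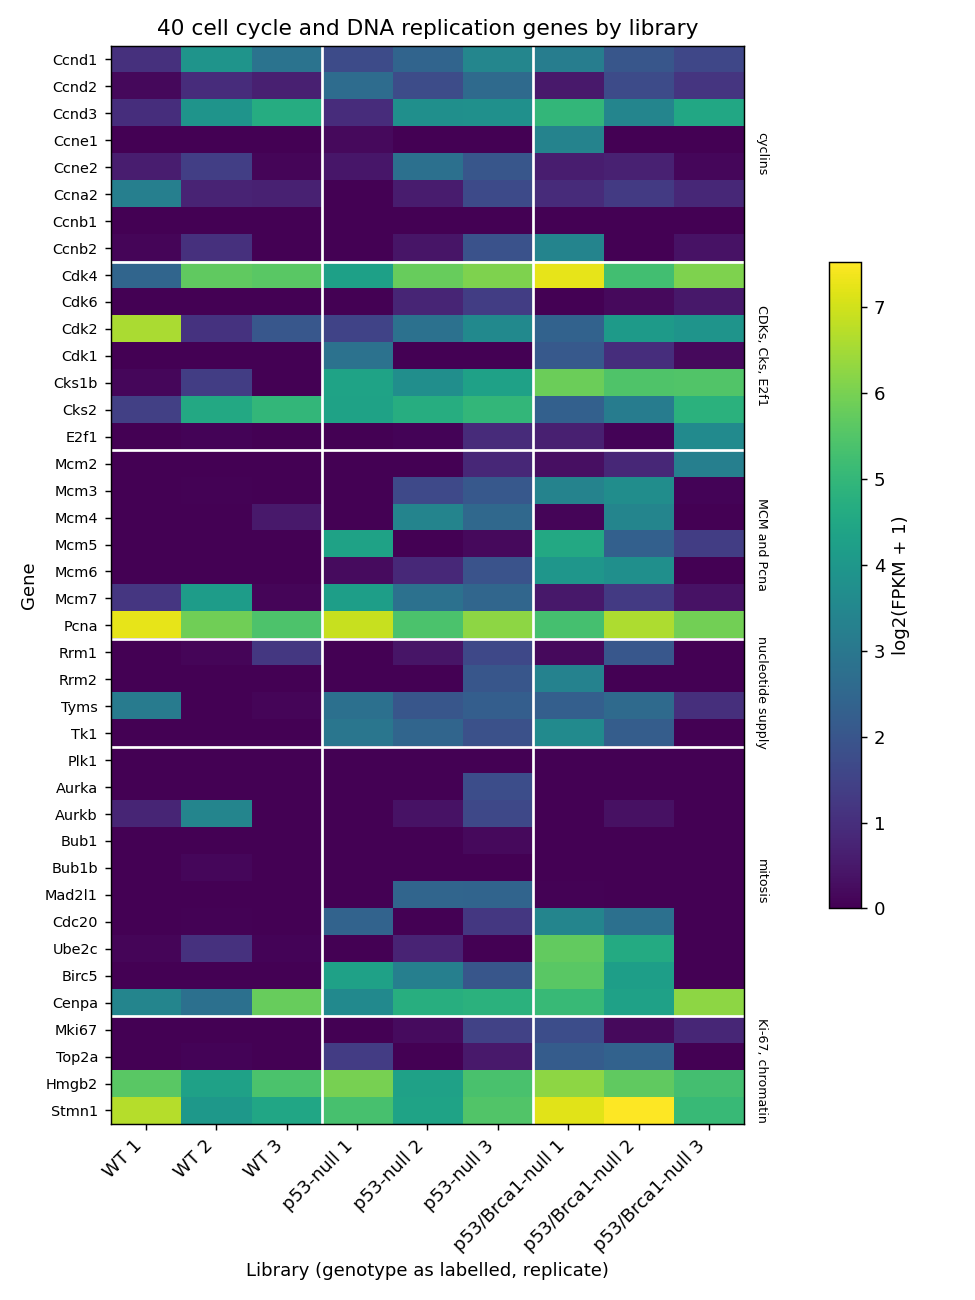
Level of each of the 40 members (rows, grouped by role) in each library (columns) as log2(FPKM + 1). Ccnd1, Cdk2, Cdk4, Cks2, Pcna, Cenpa, Hmgb2 and Stmn1 are above 1 FPKM in all 9 libraries. Plk1, Aurka, Bub1, Bub1b and Mad2l1 are near 0 in every WT and every p53/Brca1-null library. Cdc20 and Birc5 are near 0 in every WT library and vary among the null libraries.

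Cks1b was the 1 member that passed the test. It encodes a small subunit that binds cyclin-dependent kinases and helps the SCF-Skp2 ubiquitin ligase recognise the inhibitor p27. It stood at 0.0861, 1.59 and 0 FPKM in WT, against 19.6, 12.3 and 18.7 in p53-null and 55.9, 43.1 and 44.3 for p53/Brca1-null. The genotypes did not overlap and lay in that order, as they did for 38 of all 9503 tested genes (0.400%). Against WT, Cks1b rose in p53/Brca1-null by 5.10 ± 0.90 (SE) on the log2(FPKM + 1) scale (95% interval 3.20 to 7.01, limma adjusted p = 0.0333). It was higher in 3 of 3 libraries. Against WT the p53-null difference was 3.64 ± 0.90 (limma adjusted p = 0.150), and between p53/Brca1-null and p53-null it was 1.47 ± 0.90 (limma adjusted p = 0.9995), neither of which passed. In bulk libraries, fewer cells with a transcript and less of it per cell cannot be told apart. The pseudocount of 1 FPKM bounds what the near-zero WT values add. Reads of Cks1b could be shared with its near-identical copy Cks1brt, which stood at 0.0871 FPKM at most.

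The size of the Cks1b difference between p53/Brca1-null and WT kept within 4.82 and 5.54 in every other setting but the smaller pseudocount (7.24). Its call did not: it was held in 8 of 17. Without WT replicate 1 the limma adjusted p was 0.0267, and with the estimated share of WT replicate 2 subtracted from it 0.0833. The call was lost without p53-null replicate 2 (0.0645) or 3 (0.0551), which changes only the estimate of the spread and the genes tested. It was also lost without p53/Brca1-null replicate 1 (0.133), 2 (0.206) or 3 (0.135), with only the 6 libraries compared (0.0860) and with detected genes as a covariate (0.105).

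Cks2, the paralog of Cks1b, overlapped between the genotypes. It stood at 1.70, 22.3 and 31.0 FPKM in WT, against 19.1, 24.8 and 30.7 in p53-null and 3.94, 7.96 and 27.3 for p53/Brca1-null. WT replicate 1 lay at 7.64% of WT replicate 2 for this gene.

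Among the D-type cyclins, Ccnd1 stood at 1.06, 14.1 and 6.37 FPKM in WT, against 2.30, 4.41 and 10.02 in p53-null and 8.09, 3.02 and 2.05 for p53/Brca1-null, overlapping throughout. Ccnd2 stood at 0.128, 0.943 and 0.572 in WT, against 5.31, 2.35 and 5.07 in p53-null and 0.438, 2.30 and 1.26 for p53/Brca1-null. All 3 p53-null libraries were above every other library for Ccnd2, by 1.74 ± 0.82 on the log2 scale against WT (limma adjusted p = 0.421), which did not pass. With quantile normalization that difference was 0.62 (limma adjusted p = 0.769). Ccnd3 stood at 0.988, 14.0 and 24.3 in WT, against 0.955, 12.6 and 12.8 in p53-null and 30.8, 9.70 and 22.1 for p53/Brca1-null.

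Their kinase partner Cdk4 was among the higher members. It stood at 4.45, 50.9 and 47.7 FPKM in WT, against 18.4, 54.1 and 66.7 in p53-null and 151.4, 36.9 and 67.2 for p53/Brca1-null, with overlapping groups. The other D-cyclin kinase, Cdk6, reached 1 FPKM in p53-null replicate 3 alone, at 1.57. Cdk2, the partner of cyclins E and A, stood at 94.3, 1.14 and 3.11 FPKM in WT, against 1.89, 6.01 and 10.96 in p53-null and 4.17, 16.4 and 13.9 for p53/Brca1-null. WT replicate 1 was far above the other 8 libraries for Cdk2.

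Cyclin E genes were low. Ccne1 was at 1 FPKM or more in p53/Brca1-null replicate 1 alone, at 9.37. Ccne2 stood at 0.504, 1.62 and 0.0657 FPKM in WT, against 0.371, 5.94 and 3.05 in p53-null and 0.509, 0.617 and 0.0985 for p53/Brca1-null. The Ccne2 difference between p53/Brca1-null and p53-null was -1.28 ± 0.77 on the log2 scale (limma adjusted p = 0.9995). Ccna2, the S-phase and G2 cyclin, stood at 8.43, 0.671 and 0.625 in WT, against 0.0138, 0.501 and 2.26 in p53-null and 0.895, 1.45 and 0.799 for p53/Brca1-null, again highest in WT replicate 1. E2f1, the factor that switches on replication genes, was under 1 FPKM in 8 libraries and stood at 11.1 in p53/Brca1-null replicate 3.

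The MCM genes encode the hexameric replicative helicase, whose subunits act in 1 complex, but they did not vary alike here. Mcm3 stood at 0.0177, 0.0384 and 0 FPKM in WT, against 0, 2.15 and 3.24 in p53-null and 9.32, 12.0 and 0.0518 for p53/Brca1-null. Mcm6 was listed at 0 in each WT library and had values of 0.160, 0.841 and 2.84 in p53-null and 14.7, 12.5 and 0.0129 for p53/Brca1-null (against WT, limma adjusted p = 0.323). For both genes p53/Brca1-null replicates 1 and 2 were the highest of all libraries and replicate 3 was near 0.

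Mcm5 was also listed at 0 in all WT libraries. Its values were 19.2, 0 and 0.139 FPKM in p53-null and 22.2, 3.91 and 1.60 for p53/Brca1-null, where all 3 libraries were above 1 FPKM. Mcm4 stood at 0, 0 and 0.416 in WT, against 0, 9.65 and 4.79 in p53-null and 0.0742, 9.67 and 0 for p53/Brca1-null. Mcm2 reached 1 FPKM in p53/Brca1-null replicate 3 alone, at 8.49, the library in which Mcm3, Mcm4 and Mcm6 were near 0.

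Mcm7 values in the p53/Brca1-null libraries lay under those of the p53-null libraries. The gene stood at 1.28, 17.0 and 0.0676 FPKM in WT, against 17.7, 5.96 and 4.63 in p53-null and 0.410, 1.41 and 0.285 for p53/Brca1-null. Every p53/Brca1-null library was below every p53-null library, a log2 difference of -2.47 ± 1.08 (limma adjusted p = 0.959), which did not pass. Pcna, the sliding clamp of DNA polymerases and also a p53 target gene, was high throughout, at 152.0, 58.3 and 41.9 in WT, against 118.4, 41.1 and 74.9 in p53-null and 39.1, 97.2 and 60 for p53/Brca1-null, with overlapping groups. RefSeq lists pseudogenes of Pcna, Ccnb1, Ccnb2, Ccnd3 and Tyms, whose reads could be shared with these genes.

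Of the genes that supply deoxynucleotides, Tk1, thymidine kinase 1, was listed at 0 in all WT libraries. The p53-null values were 6.78, 4.53 and 2.63 FPKM (limma adjusted p = 0.339 against WT) and the p53/Brca1-null values 11.2, 3.64 and 0. Tyms, thymidylate synthase, stood at 7.84, 0 and 0.0669 in WT, against 5.89, 3.06 and 3.77 in p53-null and 3.81, 5.08 and 1.01 for p53/Brca1-null. It was above 1 FPKM in all 6 null libraries and in WT replicate 1. Of the ribonucleotide reductase subunits, Rrm1 stood at 0, 0.0633 and 1.32 in WT, against 0, 0.344 and 2.10 in p53-null and 0.151, 3.09 and 0 for p53/Brca1-null. Rrm2 was at 3.02 FPKM in p53-null replicate 3, at 9.18 in p53/Brca1-null replicate 1 and under 0.02 elsewhere.

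Among mitosis genes Birc5 (survivin), a subunit of the chromosomal passenger complex, was listed at 0 in all WT libraries. The p53-null values were 18.8, 8.45 and 3.02 FPKM (limma adjusted p = 0.333 against WT). The p53/Brca1-null values were 47.9, 17.6 and 0 (limma adjusted p = 0.314 against WT). Every p53-null library was above every WT library, whereas p53/Brca1-null replicate 3 was at 0 like WT. Aurkb, the kinase of the same complex, was highest in WT replicate 2 at 9.68 FPKM and reached 2.13 in p53-null replicate 3, with no other library at 1 FPKM.

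Ube2c, a ubiquitin-conjugating enzyme of the anaphase-promoting complex, was near 0 in p53-null and high in 2 p53/Brca1-null libraries. It stood at 0.0654, 1.09 and 0.0511 FPKM in WT, against 0, 0.689 and 0 in p53-null and 51.4, 23.4 and 0 for p53/Brca1-null. The log2 difference of p53/Brca1-null was 3.03 ± 1.18 from WT (limma adjusted p = 0.323) and 3.19 ± 1.18 from p53-null (limma adjusted p = 0.796). Neither passed, and p53/Brca1-null replicate 3 was below WT. Without that replicate the differences were 4.75 (limma adjusted p = 0.131) and 4.91 (limma adjusted p = 0.542). Cdc20, an activator of the same complex, stood at 0, 0.0217 and 0 in WT, against 4.29, 0 and 1.32 in p53-null and 9.70, 5.83 and 0 for p53/Brca1-null.

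Ccnb2, a B-type cyclin, stood at 0.0710, 1.08 and 0 FPKM in WT, against 0, 0.345 and 2.74 in p53-null and 9.52, 0 and 0.286 for p53/Brca1-null. Its kinase Cdk1 was listed at 0 in each WT library and had values of 6.20, 0 and 0 in p53-null and 3.28, 0.996 and 0.144 for p53/Brca1-null. Of the spindle checkpoint and mitotic kinase genes, Mad2l1 stood at 4.46 and 4.37 in p53-null replicates 2 and 3 and under 0.03 elsewhere. Aurka reached 2.45 in p53-null replicate 3 alone. These genes varied from library to library within a genotype.

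Cenpa, the histone H3 variant of centromeres, was at 1 FPKM or more in every library: 9.68, 5.89 and 54.0 FPKM in WT, against 10.8, 25.3 and 27.4 in p53-null and 32.4, 19.0 and 75.2 for p53/Brca1-null. Hmgb2, a chromatin protein, stood at 47.7, 18.7 and 41.3 in WT, against 62.6, 18.9 and 40.2 in p53-null and 75.9, 50.6 and 38.2 for p53/Brca1-null. Both overlapped between genotypes. Stmn1 (stathmin), which destabilises microtubules, stood at 102.9, 15.2 and 20.9 in WT, against 39.4, 19.7 and 44.2 in p53-null and 144.3, 184.3 and 32.4 for p53/Brca1-null. Its log2 difference between p53/Brca1-null and p53-null was 1.52 ± 0.84 (limma adjusted p = 0.9995), and 2.29 without p53/Brca1-null replicate 3 (limma adjusted p = 0.993). These abundant members were present in WT libraries in which Mki67 was at or near 0.

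The division markers themselves were low. Mki67 stood at 0, 0 and 0.00187 FPKM in WT, against 0.0182, 0.160 and 1.82 in p53-null and 2.43, 0.134 and 0.762 for p53/Brca1-null. Top2a, topoisomerase II alpha, stood at 0, 0.0616 and 0 in WT, against 1.55, 0.0153 and 0.432 in p53-null and 3.61, 4.14 and 0 for p53/Brca1-null. Neither gene reached 5 FPKM in any library.

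**Figure D4:**
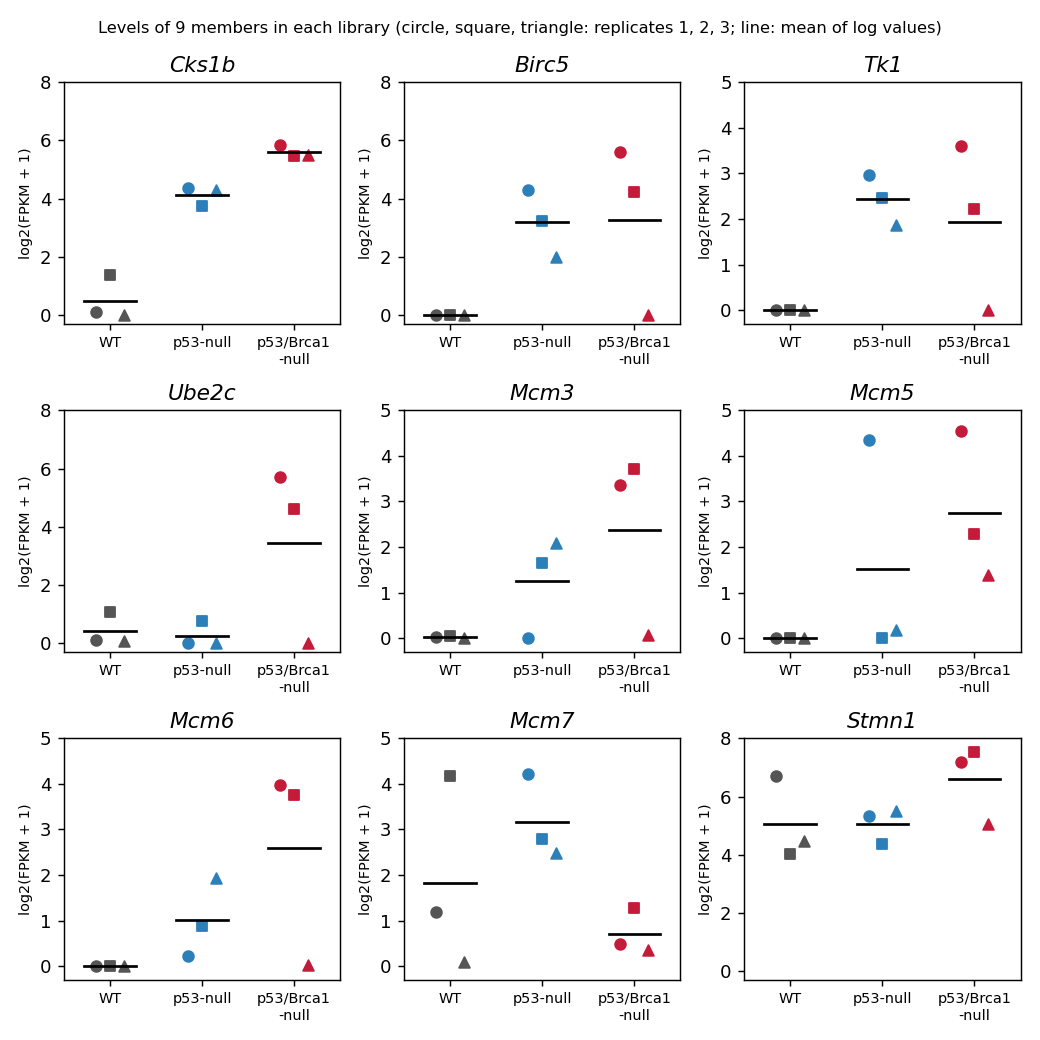
log2(FPKM + 1) of 9 members in each library, by labelled genotype on the x axis; the marker shape gives the replicate and the line the mean of the log values. Cks1b separates all 3 genotypes, while for Birc5, Tk1, Ube2c, Mcm3 and Mcm6 the triangle of p53/Brca1-null replicate 3 lies at or near 0.

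p53/Brca1-null replicate 3 was low for some of the members and not for others, a pattern chosen after the values were seen. For 7 of the 26 tested members (Top2a, Mcm3, Mcm6, Tk1, Birc5, Ube2c and Cdc20) it was under 1 FPKM while replicates 1 and 2 were at 1 or more, as it was for 9.55% of all tested genes. For p53/Brca1-null replicates 1 and 2 the matching counts were 1 (Ccnd2, against 9.81%) and 0 (against 5.01%). Top2a, Mcm6 and Ube2c reached 1 FPKM in only 3 libraries, 2 of them p53/Brca1-null replicates 1 and 2. High values there were needed for their test, so their pattern was partly set by the filter. All genes passed through that filter, and its part in these counts was not tested. Across all 9 libraries, p53/Brca1-null replicate 1 held the highest value for 14 of the 36 members that reached 1 FPKM anywhere. The matching share of all genes was not computed, so this count has no background. Replicate 3 detected 7473 genes at 1 FPKM or more, between the 7332 and 8213 of replicates 1 and 2. It held the highest values of Mcm2, Cenpa and E2f1, and Cks1b stood there at 44.3 FPKM.

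Counts of calls were small in every comparison. In p53-null against WT none of the 26 tested members passed, with 0.0105% of all tested genes called (1 gene). At an unadjusted limma p under 0.05, 4 members were higher (Ccnd2, Tk1, Birc5 and Cks1b, 15.4%) against 10.8% of all genes, and 0 were lower against 0.989%. All 3 p53-null libraries lay above all WT libraries for 5 members (Ccnd2, Mcm6, Tk1, Birc5 and Cks1b, 19.2%) against 14.1% of all tested genes, and below them for 0 against 2.16%. The difference was above 0 for 20 of 26 members (76.9%) and 70.2% of all genes. These shares were not far from the background. The median log2 difference was 0.90 over the members and 0.58 over all tested genes, and with quantile normalization these medians were 0.06 and -0.04. With a filter of 5 FPKM, which kept 13 members, they were 0.38 and 0.63, so the order of the members and all genes turned, as it did without p53-null replicate 1 (0.78 and 0.82). Without WT replicate 1 they were 1.01 and 0.34. A member near 0 in WT had to be higher in the null libraries to enter the test, so these counts do not describe all 40.

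In p53/Brca1-null against WT, 1 of 26 members passed (Cks1b), with 0.253% of all tested genes called (24 genes) 0.221% called higher and 0.0316% lower. At an unadjusted limma p under 0.05, 7 members were higher (Mcm3, Mcm5, Mcm6, Birc5, Cks1b, Ube2c and Cdc20, 26.9%) against 10.1% of all genes, and 0 were lower against 2.09%. All 3 libraries lay above all WT libraries for 4 members (Mcm3, Mcm5, Mcm6 and Cks1b, 15.4%) against 12.7%, and below them for 0 against 3.83%, but for Mcm3 and Mcm6 the lowest p53/Brca1-null value was under 0.1 FPKM. The difference was above 0 for 20 of 26 members (76.9%) and 63.6% of all genes. The median log2 difference was 1.07 over the members and 0.41 over all tested genes, and 0.67 and -0.04 with quantile normalization. Without WT replicate 1 these were 0.93 and 0.20. Of the 7 members at an unadjusted p under 0.05, Mcm3, Mcm5, Mcm6, Birc5 and Cdc20 reached 1 FPKM in no WT library. They were tested only because null libraries were high, so their separation from WT was partly set by the filter. Ube2c, at 1.09 FPKM in WT replicate 2, also needed its 2 high p53/Brca1-null libraries to be tested. The same filter was applied to all genes, and its part in the 26.9% and the 10.1% was not tested. This comparison shares the WT libraries with the one before, so similar values in both are not independent.

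In p53/Brca1-null against p53-null no member and no gene passed (0.00% called). At an unadjusted limma p under 0.05, 1 member was higher (Ube2c, against 1.85% of all genes) and 1 lower (Mcm7, against 2.88%). Ube2c reached 1 FPKM in no p53-null library and was tested only because 2 p53/Brca1-null libraries were high. Its separation from p53-null was thus partly set by the filter. The libraries did not overlap for Cks1b, which was higher (against 4.87%), and for Ccnd2 and Mcm7, which were lower (against 8.02%). The difference was above 0 for 17 of 26 members (65.4%) and 42.9% of all genes. The median log2 difference was 0.50 over the members and -0.16 over all tested genes, and 0.69 and 0.00 with quantile normalization. The members' median was 0.22 without p53/Brca1-null replicate 1, 0.26 without p53-null replicate 1 and 0.28 without p53-null replicate 2. The medians of all tested genes in these settings were -0.10, -0.37 and -0.04.

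**Figure D5:**
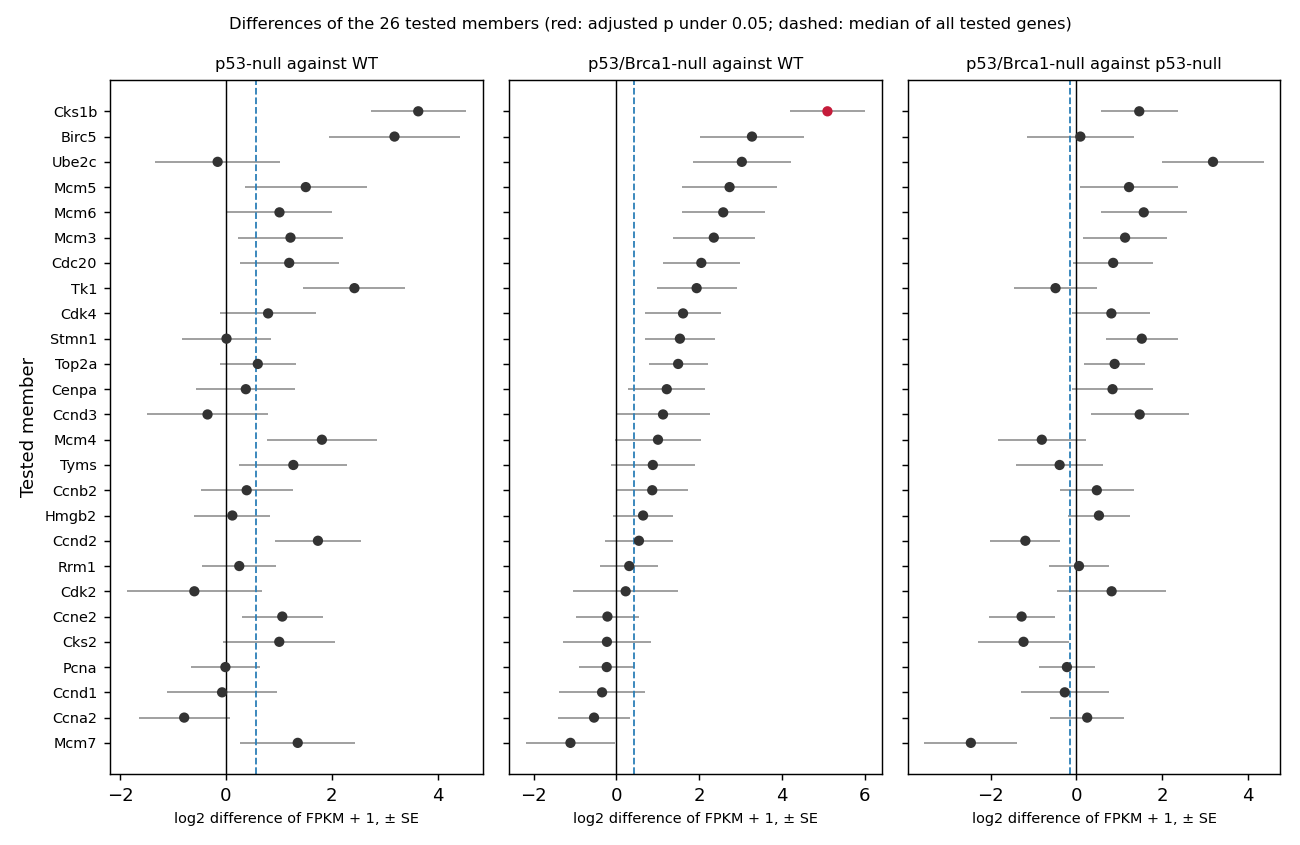
log2 difference of FPKM + 1 with its SE for the 26 tested members in each of the 3 comparisons, ordered by p53/Brca1-null against WT. Red marks the 1 call, Cks1b at 5.10, and the dashed lines are the medians of all tested genes, at 0.58, 0.41 and -0.16.

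Other genes of the same processes gave few tested values. Of 37 further origin and replication fork genes 25 were tested and none passed in any comparison; at an unadjusted p under 0.05, 2, 5 and 1 were higher and 0, 0 and 1 lower in the 3 comparisons in the order above. Over all tested genes those shares were 10.8%, 10.1% and 1.85% higher and 0.989%, 2.09% and 2.88% lower. Gmnn, geminin, which blocks relicensing of origins, was listed at 0 in each WT library and had values of 0, 4.64 and 3.54 FPKM in p53-null and 14.8, 6.99 and 20.0 for p53/Brca1-null (against WT, limma adjusted p = 0.0959). Unlike Mcm6, it was at its highest in p53/Brca1-null replicate 3. Pola2, a subunit of DNA polymerase alpha, stood at 0, 0.0428 and 0 in WT, against 9.93, 1.90 and 5.54 in p53-null and 0.332, 0.0603 and 0.0435 for p53/Brca1-null. Its p53-null libraries lay above all others (limma adjusted p = 0.179 against WT and 0.507 between the null genotypes). Pola2 reached 1 FPKM only in these 3 libraries, and Gmnn only in null libraries. Both were thus tested only because null libraries were high, so their separation from WT was partly set by the filter.

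Of 31 further mitosis genes only 7 were tested, and none passed. Spc24, a kinetochore subunit, stood at 0, 0 and 0.0081 FPKM in WT, against 0.0315, 0.0168 and 5.99 in p53-null and 19.4, 4.92 and 0 for p53/Brca1-null (against WT, limma adjusted p = 0.390). Prc1, which bundles the midzone spindle, was listed at 0 in each WT library and had values of 0, 0.0560 and 2.63 in p53-null and 1.39, 7.29 and 0.0380 for p53/Brca1-null. Both were near 0 in p53/Brca1-null replicate 3. They reached 1 FPKM only in p53-null replicate 3 and p53/Brca1-null replicates 1 and 2, so high values in those replicates were needed for the test. They therefore add no separate evidence to the replicate 3 pattern described above, which was itself partly set by the filter.

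Inhibitors of the cycle were measured beside the members. Of 7 CDK inhibitors 6 were tested and none passed. Cdkn1a, which encodes p21 and is switched on by p53, stood at 45.1, 116.4 and 44.0 FPKM in WT, against 232.8, 82.2 and 126.0 in p53-null and 123.5, 129.1 and 70.3 for p53/Brca1-null, and the p53-null difference from WT was 1.11 ± 0.58 on the log2 scale (limma adjusted p = 0.467). Its WT and p53-null ranges overlapped. Cdkn2c (p18) was listed at 0 in each WT library and had values of 0.561, 0 and 2.12 in p53-null and 9.61, 4.31 and 0.0386 for p53/Brca1-null. It reached 1 FPKM in null libraries alone, so its separation from WT was partly set by the filter.

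Of 20 RB, E2F and quiescence genes 13 were tested and none passed, with medians of 0.64, -0.03 and -0.85 in the 3 comparisons against 0.58, 0.41 and -0.16 over all tested genes. E2f5, an E2F repressor, stood at 0.215, 2.49 and 2.02 FPKM in WT, against 13.5, 14.7 and 16.0 in p53-null and 1.05, 0.672 and 30.3 for p53/Brca1-null. Tfdp2, an E2F dimer partner, stood at 23.0, 5.52 and 0.00554 in WT, against 0.388, 5.90 and 1.45 in p53-null and 0, 0.0200 and 0.208 for p53/Brca1-null. E2f5 was thus above WT in every p53-null library but in only 1 p53/Brca1-null library.

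Of Mki67, Top2a and Cdk1, Cdk1 had the highest mean. Over the 9 libraries the tested genes with values most like it by Pearson's r of log2(FPKM + 1) included Mcm5 (0.963), Egr2 (0.962), Cabyr (0.961) and Stk3 (0.914). Mcm5 ranked 2 of 9503, and of the other members Cdc20 ranked 39 (0.826) and Birc5 85 (0.771). These values rest on 3 libraries in which Cdk1 was near or above 1 FPKM, chiefly p53-null replicate 1, and are a description.

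Markers of other cell types were measured in the same libraries, and 1 of them passed against WT. The summed level of 10 immune markers was 2312 to 6957 FPKM in WT, 2520 to 5511 in p53-null and 7730 to 12669 for p53/Brca1-null, with 1 of 9 tested markers, H2-Aa, called higher than in WT (limma adjusted p = 0.0105), where 0.221% of all tested genes were called higher. The immune sums of p53/Brca1-null did not overlap those of the other genotypes, and those of the other marker lists overlapped between WT and p53/Brca1-null. The leukocyte marker Ptprc stood at 0.338 to 14.5 FPKM in WT and 0.982 to 5.73 in p53/Brca1-null, and the B cell marker Cd79a was at 0 in all WT libraries. The sum of 6 endothelial markers was 0.0262 to 72.2 FPKM in WT, 21.7 to 433.9 in p53-null and 30.5 to 112.7 in p53/Brca1-null, with 0 of 5 tested markers called. Kdr was at 0 in all WT and all p53/Brca1-null libraries and at 14.3, 0.190 and 0.918 FPKM in p53-null. For 6 fibroblast markers the sums were 71.1 to 200.2, 81.0 to 136.5 and 47.3 to 458.2 FPKM, with 0 of 5 called. Pdgfra was at 0, 0.0216 and 0 FPKM in WT, at 0 in all p53-null libraries and at 0, 1.99 and 0 for p53/Brca1-null. The sum of 6 luminal markers was 5527 to 8754, 3414 to 14682 and 4501 to 6640 FPKM, with 0 of 6 called. For 6 basal markers it was 152.4 to 360.3, 185.7 to 962.6 and 207.5 to 348.3, with 0 of 4 called. Cd79a, Kdr and Pdgfra did not enter the test. Among tested markers, 6 of 9 immune, 1 of 5 endothelial and 1 of 5 fibroblast had all 3 p53/Brca1-null libraries above all WT libraries. No luminal or basal marker did, and the share of all tested genes was 12.7%. For p53-null the counts were 0, 2 and 2, with 1 of 4 basal and 0 of 6 luminal, against 14.1%. No tested marker lay below all WT libraries in p53-null or p53/Brca1-null (2.16% and 3.83% of all tested genes). The markers' part in the levels of Cks1b and the other members was not tested.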

How the data were processed

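RNA of sorted YFP-positive mammary epithelial cells was extracted with Trizol and made into libraries with the SMARTer v4 kit for small amounts of mRNA, per the labels' protocols. The authors deposited FPKM values in 1 table of 24043 rows with a column per library. The header names no unit, and the unit was read as FPKM because the values are fractional and their sums differ between libraries. The genome build was mm9, per the submitters' processing notes. For the aligner, quantifier and annotation, nothing is given in the sources used here.

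Spike-in rows (92, of which 1 was above 0) were dropped. The 9503 genes that reached 1 FPKM in 3 or more libraries entered a limma 3.58.1 fit (R 4.3.3) of log2(FPKM + 1). All 9 libraries were used, with genotype means as coefficients, 6 residual degrees of freedom, a mean-variance trend and robust variance shrinkage. Benjamini-Hochberg adjustment ran over all of these genes, and a call is an adjusted p under 0.05. The code was tested on simulated data. A difference on the log2(FPKM + 1) scale understates the change of low genes, and the intervals are 95% intervals from the same fit.

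The members and gene lists were chosen with earlier results of these data known, so nothing is adjusted over a list. Statistics are given for called members and for the 4 with the smallest p per comparison, without the log2 difference where WT was at 0 throughout. Each further list is represented by its 2 genes of smallest p; genes outside this rule are named for their values alone. Alternatives changed the filter (none, or 5 FPKM), the pseudocount (0.1), the scaling (quantile normalization) or the model: a replicate block, a covariate for detected genes, a fit of the 6 compared libraries alone, and each library left out. Subtracting the share of WT replicate 2 from WT replicate 1 was added after seeing the data. Promoters and motif matches came from RefSeq sequence on GRCm38.p6, another build than that of the table, and were matched by symbol only. Some genes that the naming rule or a check would give are not reported here.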

Additional observations from a re-analysis of the deposited data

How the results depend on the processing

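In p53-null against WT, where 1 gene passed, the count was 0 with only the 6 libraries compared or with detected genes as a covariate, 17 with the pseudocount of 0.1, and 0 to 8 with each library left out (0 without p53-null replicate 1 or 3, and 2, 5 or 8 when WT replicate 1, 2 or 3 was omitted). No member passed in any of these. In p53/Brca1-null against WT, where 24 genes passed, the count was 14 with the replicate block, 9 with only the 6 libraries compared, 45 with quantile normalization, 56 with the pseudocount of 0.1, 4 with the covariate and 6 with the WT replicate 2 share subtracted from WT replicate 1. With each library left out it was 3 to 73 (73 when WT replicate 3 was omitted, 8 or 12 when p53-null replicate 2 or 3 was, and 6, 3 or 7 when p53/Brca1-null replicate 1, 2 or 3 was). The count of members called, 1 as reported, was 0 with the replicate block, with only the 6 libraries compared, with the covariate and with the WT share subtracted, and 0 to 1 with each library left out. In p53/Brca1-null against p53-null 1 gene passed with only the 6 libraries compared, against 0 as reported. The cause was not tested for any of these. Each alternative refitted all genes that its filter kept. Values were followed one by one for the members with the 4 smallest p in a comparison (Cks1b, Birc5, Tk1 and Ccnd2, then Cks1b, Birc5, Mcm6 and Ube2c, then Ube2c, Mcm7, Stmn1 and Ccne2). These kept their direction wherever the setting still tested them. Other members entered only the counts of calls and the medians. For same-numbered libraries of different genotypes the correlation of their deviations lay between -0.083 and 0.056 over 9 pairs. For differently numbered libraries it lay between -0.064 and 0.078, and 2 of 9 libraries correlated best with their own number. Correlations this near 0 cannot show whether same-numbered libraries were handled together, so pairing by number remains unknown. Under the replicate block the adjusted p of Cks1b in p53/Brca1-null against WT was 0.0502, and over all alternatives it ranged from 0.0179 to 0.206. The read depth is unknown, so a gene listed at 0 cannot be given a detection limit.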
